A study of Mus musculus with 17 samples.

Results

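The Hippo and MRTF-SRF pathways are routes by which a cell turns mechanical load and the state of its actin skeleton into transcription. Hippo kinases keep the coactivators YAP and TAZ in the cytoplasm. When the kinases are inactive, as on stiff matrix, YAP and TAZ enter the nucleus and bind the TEAD DNA-binding factors. MRTF is held by monomeric actin, and when actin assembles into filaments it moves to the nucleus and binds the factor SRF. In the heart both routes are known for their part in the conversion of fibroblasts into contractile, matrix-producing cells after injury. Because these effectors are controlled largely by where the proteins are in the cell, their mRNA levels are not a measure of their activity, and mRNA is what was measured here.

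The genes described are 10 of the 31053 genes of a bulk RNA-seq count table, chosen by symbol: 5 effectors (*Yap1*, *Wwtr1*, *Tead1*, *Mkl1* and *Srf*) and 5 targets (*Ctgf*, *Cyr61*, *Ankrd1*, *Amotl2* and *Ajuba*). All 10 were found, and all 10 passed the filter on low counts (at least 10 counts in at least 3 libraries), which left 14030 genes for testing. In GENCODE vM21, which names 3 of them differently (*Ccn2* for *Ctgf*, *Ccn1* for *Cyr61* and *Mrtfa* for *Mkl1*), all are protein coding. The cells were cardiac fibroblasts (CFs) sorted as Col1a1-GFP+/CD31-/CD45-, that is, with GFP driven by a collagen promoter and without CD31 of endothelial cells or CD45 of leukocytes. They came from C57BL/6 mice of genotype Collagen1a1-GFP+, 8 to 10 weeks old. Every group had a myocardial infarction by ligation of the left anterior descending artery, so that the comparisons are between days post-infarction (dpi) and no uninjured group is included. The day was covered by 4 libraries at 3 dpi, by a single library at 5 dpi, and by 3 libraries on every other day. The labels call them replicates without naming animals or pools, and the p-values measure only the spread between these libraries.

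Total counts ranged from 8021815 to 22029938 per library, with a median of 14123952. Summed levels of 8 fibroblast markers were between 12200 and 38700 CPM (a gene's counts scaled to the total of its library) in the 17 libraries. Of the other marker lists, 5 erythroid markers summed to 272 to 2690 CPM at 4 dpi, up to 506 CPM at 6 dpi and up to 182 CPM on the remaining days. The study's cell preparation, described for days 3 and 5, included lysis of red cells. The erythroid marker *Alas2* had at most 42 counts and was at 0 in 3 libraries. The highest sum of 6 mesothelial markers was 526 CPM at 6 dpi, that of 8 endothelial markers was 104 CPM at 3 dpi, and those of 9 cardiomyocyte and 7 mural markers were 190 CPM at 6 dpi and 221 CPM at 5 dpi. The 8 leukocyte markers summed to 54.7 to 239 CPM at 3 and 5 dpi and to 13.4 to 40.5 CPM on the other days. The part of these cells in the levels of the members was not tested. *Xist* had between 1005 and 3436 counts in each library of 4 and 6 dpi and at most 2 in each of 3 and 5 dpi, whereas the summed counts of 4 Y-linked genes did not exceed 10 at 4 or 6 dpi and were 402 or more at 3 or 5 dpi. At 2 dpi the Y-linked counts were 1095 to 1349 beside 34 to 51 of *Xist*, and at 1 dpi both were present in each library, at 84 to 1455 and 63 to 1670 counts. The difference of 4 from 3 dpi and that in sex-linked genes cannot be told apart. Other comparisons, those of the window included, share this limit in part. In these genes 3 and 5 dpi differ from 6 dpi, 4 dpi from 2 dpi, and 6 dpi from 1 dpi. The libraries of 3 dpi alone were named by another scheme, so that a difference of 3 dpi from any other day, 2 dpi included, and what this scheme marks cannot be told apart either. Replicate 2 of 3 dpi stood apart over all genes, with a chi-square over its degrees of freedom of 161.28 to 212.55 against the other 3 libraries of that day, which had 22.86 to 36.07 among themselves. Without it 3466 genes were called over the time course in place of 2099, and 5 members (*Cyr61*, *Tead1*, *Ajuba*, *Amotl2* and *Ankrd1*) in place of 3.

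Promoter sequences (RefSeq, GRCm38.p6, 250 bases before to 50 after each start) were found for 8 of the 10 genes, all but *Ctgf* and *Tead1*. They are shown because the targets are on the list as known targets of factors that bind such letters. For the same reason the shares that follow are a description and not a test. The binding core of TEAD factors, GGAATG on either strand, was in 6 of these 8 genes (4 of 4 targets and 2 of 4 effectors) against 16.6% of 27025 genes with a promoter in the table. The CArG box, the site bound by SRF (CC, then only A or T, then GG), was in 1 of the 8, *Srf* itself, against 1.81% of genes. In the following stretches of 30 bases, 5′ to 3′ on the strand of the gene, capitals mark the match, and CATTCC is GGAATG read on the other strand.
Cyr61, chr3:145650071-145650100, minus strand: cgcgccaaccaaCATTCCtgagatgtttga
Ankrd1, chr19:36120037-36120066, minus strand: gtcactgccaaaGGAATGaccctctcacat
Ankrd1, chr19:36119950-36119979, minus strand: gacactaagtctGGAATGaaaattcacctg
Amotl2, chr9:102717727-102717756, plus strand: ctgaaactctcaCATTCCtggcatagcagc
Ajuba, chr14:54577819-54577848, minus strand: aCATTCCacagtgcccctccgcgCATTCCa
Yap1, chr9:8004720-8004749, minus strand: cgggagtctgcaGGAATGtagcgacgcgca
Wwtr1, chr3:57576029-57576058, minus strand: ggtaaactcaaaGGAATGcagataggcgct
Srf, chr17:46556215-46556244, minus strand: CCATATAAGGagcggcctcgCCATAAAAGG

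*Ankrd1* and *Ajuba* held 2 matches each, and *Srf* held 2 CArG boxes inside 30 bases. A match says only that the letters are in the window. Binding was not measured.

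Levels of the members are given as CPM scaled to TMM-normalized library sizes, and differences as log2 fold changes from edgeR's quasi-likelihood F-test with Benjamini-Hochberg adjustment over the 14030 genes. A gene is called where the adjusted p is under 0.05. The protocol reads the 3′ end of each transcript. Levels are compared between days within a gene and not between genes. A difference between a pair of genes is read only by its change between days. In sorted bulk libraries, fewer cells that express a gene and less RNA per cell cannot be told apart. Over the whole time course 3 of the 10 members were called, beside 15.0% of all genes: *Ankrd1* (adjusted p = 2.7e-04), *Ajuba* (adjusted p = 0.0238) and *Cyr61* (adjusted p = 0.049). All 3 are targets. None of the 5 effectors was called by edgeR, 2 of them had an unadjusted p under 0.05 (*Wwtr1* and *Tead1*), and DESeq2 called these 2. DESeq2 also called more of all genes over the time course than edgeR, so that the 15.0% is not its share. Its count is given in the last section. The *Cyr61* call of the time course was lost in 12 of 16 fits that left out 1 library (adjusted p up to 0.113) and the *Ajuba* call in 3 of 16 (adjusted p up to 0.0592), while *Ankrd1* was called in all 16. The *Cyr61* call was kept without replicate 2 or 3 of 3 dpi, replicate 3 of 4 dpi or replicate 3 of 6 dpi, and was also lost without the 5 dpi library (adjusted p = 0.0742). Of 9 other ways of processing, 4 kept it. Besides the fit without 5 dpi, it was lost without the 3 dpi libraries, with every gene of at least 1 count, with a robust spread and with a replicate block. The libraries whose loss ended the *Ajuba* call were 1 dpi replicate 2 and 2 dpi replicates 1 and 3.

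**Figure D1:**
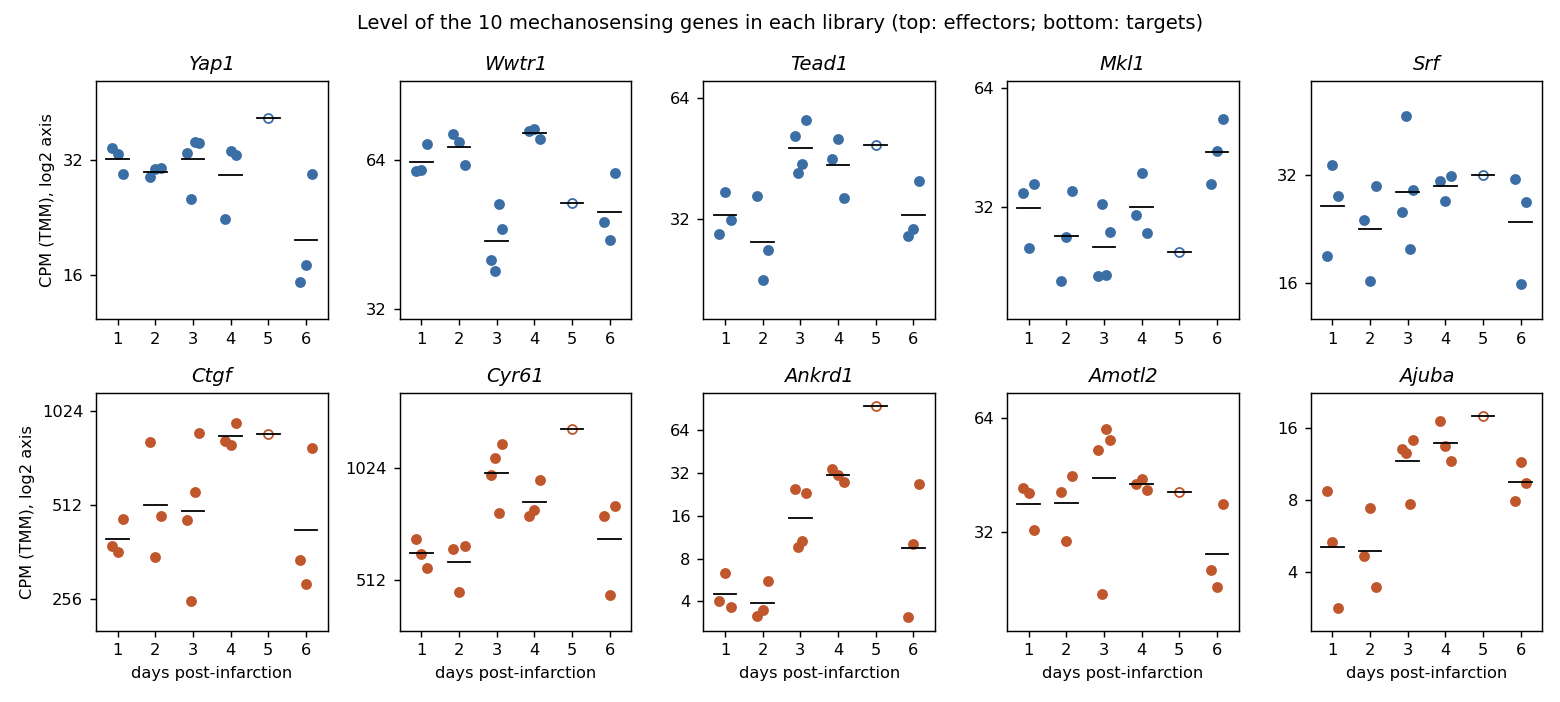
Level of each of the 10 genes in CPM (TMM-normalized, log2 axis) against days post-infarction, 1 point per library, with the effectors in the top row and the targets in the bottom row. Black bars are means of the log2 levels, and the open point is the single 5 dpi library. *Ankrd1* runs from 3.62 to 6.31 CPM at 1 dpi and reaches 94.5 CPM at 5 dpi, while *Yap1* lies between 25.3 and 41.2 CPM at 3 and 5 dpi and as low as 15.3 CPM at 6 dpi.

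The study set a window at 3 to 5 dpi. Between it and 1 and 2 dpi, 1 of the 5 effectors was called, beside 7.48% of all genes. Against 6 dpi 2 effectors were called, *Yap1* and *Mkl1*, beside 11.5% of all genes. *Tead1* was called between the window and 1 and 2 dpi, *Yap1*, *Wwtr1*, *Mkl1* and *Srf* were not, and the median log2 fold change of the 5 was 0.14 against 0.00 over all genes. *Yap1* (ENSMUSG00000053110, GRCm38 chromosome 9, 7931999 to 8004596) encodes the coactivator YAP. It measured 34.3, 33.1 and 29.3 CPM at 1 dpi, 28.8, 30.3 and 30.4 at 2 dpi, and 33.4, 25.3, 35.7 and 35.5 at 3 dpi. It measured 22.4, 33.8 and 32.9 CPM at 4 dpi, 41.2 at 5 dpi, and 15.3, 17 and 29.3 at 6 dpi. The first 3 days overlapped, the 5 dpi library stood above all the others, and 2 of the 3 libraries of 6 dpi stood below all of them. The window differed from 1 and 2 dpi by 0.14 (SE 0.19, 95% interval -0.25 to 0.53). It was higher than 6 dpi by 0.73 (SE 0.23, adjusted p = 0.0476), in 6 of 8 libraries above all 3 of 6 dpi. This call was lost in 13 of 16 fits without 1 library, with an adjusted p of up to 0.24 without 6 dpi replicate 1, and also without the 5 dpi library (adjusted p = 0.085). It was kept without 3 dpi replicate 2, 4 dpi replicate 1 or 6 dpi replicate 3.

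*Wwtr1* (ENSMUSG00000027803, chromosome 3, 57455649 to 57575910) encodes TAZ, the partner and near relative of YAP. It measured 60.9, 61.2 and 69.0 CPM at 1 dpi and 72.2, 69.5 and 62.6 at 2 dpi. At 3 dpi it measured 40.2, 38.2, 52.3 and 46.4 CPM, at 4 dpi 73.4, 74.0 and 70.6, at 5 dpi 52.4, and at 6 dpi 48, 44.1 and 60.3. All 4 libraries of 3 dpi lay below those of 1, 2 and 4 dpi, and those of 4 dpi lay above those of 3, 5 and 6 dpi. Of all genes, 18.6% separated 3 from 2 dpi in this way in either direction. The shares were 16.7% for 4 against 3 dpi and 21.6% for 6 against 4 dpi. The log2 difference of 3 from 2 dpi of -0.62 (SE 0.19, adjusted p = 0.0848) and the difference of 4 from 3 dpi of 0.72 (SE 0.19, adjusted p = 0.0524) did not pass the threshold. Both rest on the libraries of 3 dpi with their own naming scheme. In the difference of 4 from 3 dpi, day and the sex-linked genes cannot be told apart. There the erythroid sum also went from 2.13 to 30.2 CPM at 3 dpi to 272 to 2690 CPM at 4 dpi. DESeq2 called both differences. The log2 difference between *Wwtr1* and *Yap1* also varied by day. It was 0.98 ± 0.22 (SD, n = 3) at 1 dpi, 1.18 ± 0.14 (n = 3) at 2 dpi and 0.45 ± 0.15 (n = 4) at 3 dpi. It was 1.31 ± 0.34 (n = 3) at 4 dpi, 0.34 in the 5 dpi library and 1.35 ± 0.30 (n = 3) at 6 dpi. Its 2 lowest days, 3 and 5 dpi, have Y-linked counts and at most 2 *Xist* counts. At 2 dpi, among the high days, Y-linked counts were higher than at 3 dpi and *Xist* counts were few. The leukocyte markers summed to 54.7 to 239 CPM at 3 and 5 dpi and to 13.4 to 40.5 CPM on the other days. The part of either in this pattern was not tested.

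*Tead1* (ENSMUSG00000055320, chromosome 7, 112679318 to 112906807) encodes a DNA-binding partner of YAP and TAZ. It measured 29.4, 37.4 and 31.8 CPM at 1 dpi and 36.6, 22.5 and 26.8 at 2 dpi. In the window it measured 51.5, 41.6, 43.8 and 56.6 CPM at 3 dpi, 45.3, 50.8 and 36.2 at 4 dpi and 48.9 at 5 dpi, and at 6 dpi 29.0, 30.2 and 39.9. In 7 of 8 libraries of the window it was above all 6 of 1 and 2 dpi. The log2 fold change was 0.62 (SE 0.17, 95% interval 0.26 to 0.98, adjusted p = 0.0318), a fold of 1.53. The call was lost in 8 of 16 fits without 1 library (log2 fold change 0.54 to 0.71) and without the 3 dpi libraries (0.57, adjusted p = 0.11). The libraries in question were replicates 1 and 3 of 1 dpi, 2 and 3 of 2 dpi, 1 and 4 of 3 dpi, and 1 and 2 of 4 dpi.

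*Mkl1* (ENSMUSG00000042292, chromosome 15, 81012281 to 81190757) encodes the actin-regulated SRF coactivator MRTF-A. It measured 34.8, 25.2 and 36.7 CPM at 1 dpi, 20.9, 26.9 and 35.1 at 2 dpi, and 21.5, 32.7, 21.6 and 27.8 at 3 dpi. It measured 30.6, 39.0 and 27.5 CPM at 4 dpi, 24.7 at 5 dpi, and 36.6, 44.3 and 53.3 at 6 dpi. The days from 1 to 5 dpi overlapped, and the 2 highest libraries of all were of 6 dpi. The window was lower than 6 dpi by a log2 fold change of -0.70 (SE 0.23, adjusted p = 0.0495), with 7 of 8 libraries below all 3 of 6 dpi. The call sat at the threshold and was lost in 13 of 16 fits without 1 library, up to an adjusted p of 0.16 without 6 dpi replicate 2. It was kept without replicate 1 or 3 of 2 dpi or replicate 2 of 3 dpi. The summed level of 9 cardiomyocyte markers was 88.9 to 190 CPM at 6 dpi against 9.52 to 75.5 CPM in the window, with none of the 9 at 0 in every library and *Ryr2* at 0 in 10. Of the tested genes with a mean of at least 100 counts, *Myl2*, 1 of those markers, had the second highest correlation with *Mkl1* over the 17 libraries (Pearson r = 0.84). *Myl2* was named here after its value was seen. The preparation of interstitial cells, which the study describes for days 3 and 5, strains out cardiomyocytes before the sort, and the part of cardiomyocyte RNA in the *Mkl1* level was not tested. The exons of *Mkl1* also overlap those of *Sgsm3* on the other strand, which had at most 362 counts, and the strand setting of the counting is not given in the sources used here.

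*Srf* (ENSMUSG00000015605, chromosome 17, 46548329 to 46556175), the DNA-binding factor that MRTF activates, ranged from 15.9 to 46.9 CPM and was called in no comparison. Its lowest library was at 6 dpi and its highest was 3 dpi replicate 2. The window differed from 1 and 2 dpi by 0.29 (95% interval -0.20 to 0.78) and from 6 dpi by 0.32 (95% interval -0.29 to 0.92), both on the log2 scale.

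Among the targets, *Ankrd1*, *Ajuba* and *Cyr61* were higher in the window than at 1 and 2 dpi. They made 3 of 5 targets, beside 5.25% of all genes called higher in this comparison, and the median log2 fold change of the 5 was 0.81 against 0.00 over all genes. *Ctgf* and *Amotl2* were not called. With *Tead1*, 4 of the 10 members were called, beside 7.48% of all genes in either direction, and none was lower.

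*Ankrd1* (ENSMUSG00000024803, chromosome 19, 36111961 to 36120099) encodes an ankyrin repeat protein that is induced by stretch and is widely used as a readout of YAP. It measured 4.05, 6.31 and 3.62 CPM at 1 dpi and 3.16, 3.45 and 5.54 at 2 dpi. In the window it measured 24.8, 9.58, 10.7 and 23.2 CPM at 3 dpi, 34.0, 31.2 and 27.9 at 4 dpi and 94.5 at 5 dpi. At 6 dpi it measured 3.10, 10.2 and 26.9 CPM. All 8 libraries of the window lay above all 6 of 1 and 2 dpi, a separation that 2.31% of all genes showed in either direction, and the 3 libraries of 6 dpi ran from below the lowest of 1 dpi to above the highest of 3 dpi. The log2 fold change against 1 and 2 dpi was 3.08 (SE 0.39, 95% interval 2.26 to 3.89, adjusted p = 3.3e-05), a fold of 8.43. Without the 5 dpi library it was 2.40 (adjusted p = 4.6e-04), and it was called in all 16 fits without 1 of the other libraries. The rise from 2 to 3 dpi alone was 2.07 (SE 0.52, adjusted p = 0.0348), and *Ankrd1* was the only member called there by edgeR, beside 2.94% of all genes, while DESeq2 called 5 (*Wwtr1*, *Cyr61*, *Tead1*, *Ajuba* and *Ankrd1*) beside 1042 of the 14030 genes. This comparison cannot be told apart from the naming scheme of the 3 dpi libraries. The edgeR call of *Ankrd1* was lost without any of the 3 libraries of 2 dpi or without replicate 1 or 4 of 3 dpi (adjusted p 0.077 to 0.16). Against 6 dpi the window was higher by 1.46 (SE 0.47, adjusted p = 0.0495), which fell to 0.99 (adjusted p = 0.19) without 6 dpi replicate 1 and to 0.78 (adjusted p = 0.26) without the 5 dpi library, and rose to 2.48 without 6 dpi replicate 3.

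*Ankrd1* is also abundant in cardiomyocytes. The 9 cardiomyocyte markers summed to 13.2 to 41.9 CPM at 1 and 2 dpi, to 9.52 to 14.9 CPM at 3 dpi and to 17.2 CPM at 5 dpi. At 4 dpi they summed to 43.0, 75.5 and 66.1 CPM beside 34.0, 31.2 and 27.9 CPM of *Ankrd1*, both above the values of 1 and 2 dpi. At 6 dpi they summed to 88.9, 190 and 156 CPM beside 3.10, 10.2 and 26.9 CPM of *Ankrd1*. The 7 mural markers summed to 42.1 to 89.7 CPM at 1 and 2 dpi, 87.7 to 221 CPM in the window and 137 to 169 CPM at 6 dpi, with none of the 7 at 0 in any library. The 5 dpi library, with the highest *Ankrd1* level of the series, 94.5 CPM, also had the highest mural sum, 221 CPM. The 6 dpi library with the lowest *Ankrd1* level, 3.10 CPM, had 169 CPM of mural markers. The part of both kinds of cell in the *Ankrd1* levels was not tested. A summed level of 12 proliferation genes was also higher in the window (209 to 634 CPM) than at 1 and 2 dpi (59.0 to 195 CPM).

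**Figure D2:**
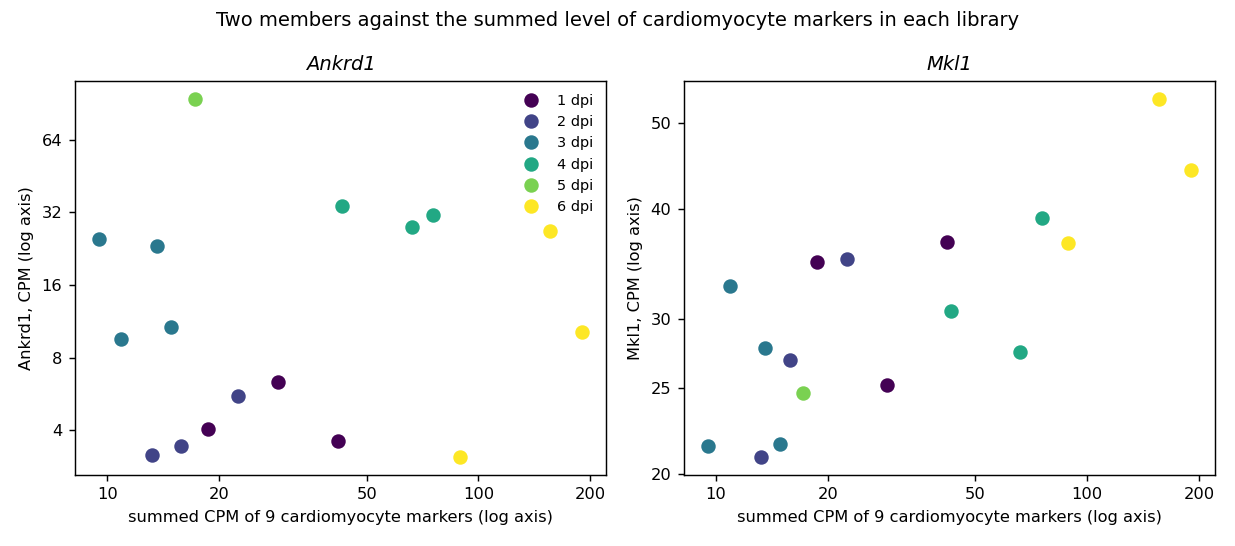
Level of *Ankrd1* (left) and *Mkl1* (right) in CPM against the summed CPM of 9 cardiomyocyte markers, both on log axes, with 1 point per library coloured by day. *Ankrd1* is highest, at 94.5 CPM, in the 5 dpi library with 17.2 CPM of markers. The 3 libraries of 6 dpi, at 88.9 CPM of markers and above, run from 3.10 to 26.9 CPM of *Ankrd1* and from 36.6 to 53.3 CPM of *Mkl1*.

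*Ajuba* (ENSMUSG00000022178, chromosome 14, 54567472 to 54577558) encodes a LIM protein that holds the LATS kinases at junctions and so is both a target and a brake on Hippo kinase activity. It measured 8.74, 5.36 and 2.84 CPM at 1 dpi and 4.66, 7.39 and 3.46 at 2 dpi. In the window it measured 13.1, 12.6, 7.73 and 14.2 CPM at 3 dpi, 17.1, 13.4 and 11.6 at 4 dpi and 18.0 at 5 dpi. At 6 dpi it measured 7.94, 11.5 and 9.45 CPM. In 7 of 8 libraries of the window it was above all 6 of 1 and 2 dpi, and the 3 libraries of 6 dpi overlapped both. The log2 fold change was 1.43 (SE 0.27, 95% interval 0.86 to 2.01, adjusted p = 0.00215), a fold of 2.70, and the call held in all 16 fits without 1 library (1.25 to 1.63). Counts of *Ajuba* were low, with 58 to 264 per library.

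*Cyr61* (ENSMUSG00000028195, chromosome 3, 145646976 to 145649981) encodes CCN1, a secreted matricellular protein. It measured 660, 604 and 554 CPM at 1 dpi and 623, 476 and 632 at 2 dpi. In the window it measured 986, 1090, 777 and 1190 CPM at 3 dpi, 761, 792 and 954 at 4 dpi and 1310 at 5 dpi. At 6 dpi it measured 763, 468 and 809 CPM. All 8 libraries of the window lay above all 6 of 1 and 2 dpi, a separation shown by 2.31% of all genes in either direction. Of the 3 libraries of 6 dpi, 2 lay within the range of the window. The log2 fold change against 1 and 2 dpi was 0.81 (SE 0.19, 95% interval 0.41 to 1.2, adjusted p = 0.00982), a fold of 1.75, and it was called in all 16 fits without 1 library (0.74 to 0.84).

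*Ctgf* (ENSMUSG00000019997, chromosome 10, 24595442 to 24598683) encodes CCN2, a secreted profibrotic relative of CCN1. It measured 379, 362 and 464 CPM at 1 dpi, 816, 350 and 472 at 2 dpi, and 460, 253, 564 and 870 at 3 dpi. It measured 820, 801 and 941 CPM at 4 dpi, 864 at 5 dpi, and 342, 287 and 784 at 6 dpi. The libraries of 2, 3 and 6 dpi were each spread over more than 2-fold, and those of 4 dpi were close together. The window was higher than 1 and 2 dpi by 0.65 (SE 0.29, 95% interval 0.04 to 1.26), which did not pass the threshold (adjusted p = 0.199). The log2 difference of *Ctgf* from *Cyr61* was -0.60 ± 0.30 (SD, n = 3) at 1 dpi, -0.16 ± 0.47 (n = 3) at 2 dpi and -1.03 ± 0.78 (n = 4) at 3 dpi. It was 0.03 ± 0.07 (n = 3) at 4 dpi, -0.59 in the 5 dpi library and -0.64 ± 0.56 (n = 3) at 6 dpi. At 3 dpi replicate 2 was at -2.11 and the other 3 libraries were between -1.10 and -0.46, which overlaps the values of 1 and 6 dpi. *Amotl2* (ENSMUSG00000032531, chromosome 9, 102716672 to 102733418), an angiomotin family protein that binds YAP and restrains it, ranged from 22 to 59.7 CPM with both extremes at 3 dpi. Its difference between the window and 1 and 2 dpi was 0.18 (95% interval -0.27 to 0.64).

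**Figure D3:**
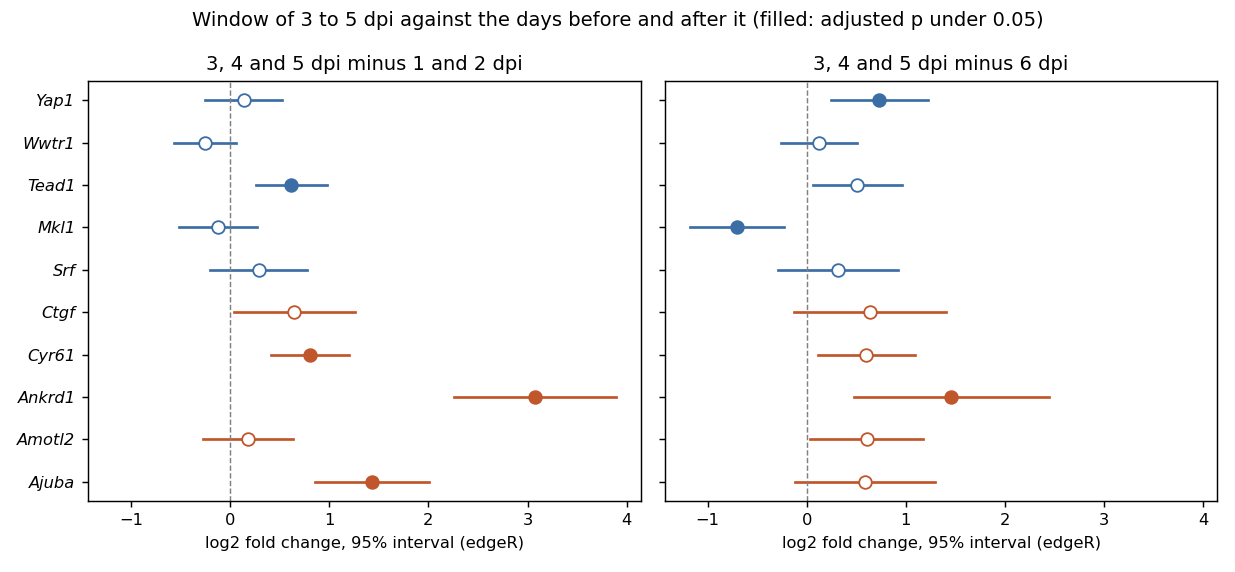
Log2 fold change of each of the 10 genes with its 95% interval from the edgeR model, for the window of 3, 4 and 5 dpi minus 1 and 2 dpi (left) and minus 6 dpi (right), with effectors in blue and targets in orange. Filled points have an adjusted p under 0.05. On the left *Ankrd1* (3.08), *Ajuba* (1.43), *Cyr61* (0.81) and *Tead1* (0.62) are filled, and on the right *Yap1* (0.73), *Ankrd1* (1.46) and *Mkl1* (-0.70).

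Against 6 dpi, 3 of the 10 members were called, beside 11.5% of all genes (5.29% higher and 6.25% lower). Of the days of the window, 3 and 5 dpi differ from 6 dpi in the sex-linked genes and 4 dpi does not. Day and these genes are therefore only partly separated in every difference from 6 dpi given here. All 5 targets and 4 of 5 effectors had a positive difference, with medians of 0.60 and 0.32 against 0.01 over all genes. The 3 adjusted p-values lay between 0.0476 and 0.0495, and the number called was 0 without the 5 dpi library and 0 to 4 with 1 other library left out. The interval of *Cyr61* was 0.11 to 1.09, of *Tead1* 0.06 to 0.96 and of *Amotl2* 0.04 to 1.17, none of them called. Between single days few members passed the threshold. None was called by edgeR between 1 and 2 dpi (0.178% of all genes called, no member with an unadjusted p under 0.05, none called by DESeq2). None was called between 3 and 4 dpi (2.71% of all genes), where *Wwtr1* had an unadjusted p under 0.05 and was called by DESeq2. None was called between 4 and 6 dpi (0.513% of all genes), where *Wwtr1* and *Ankrd1* had an unadjusted p under 0.05 and DESeq2 called none. In this comparison leaving out 6 dpi replicate 3 gave calls of *Ctgf*, *Yap1* and *Ankrd1*. The 0.513% belongs to the fit on all libraries. The share of all genes called without this library is not given here, so these calls cannot be set against it. None was called between 1 and 6 dpi (12.1% of all genes), where *Yap1* and *Ankrd1* had an unadjusted p under 0.05 and DESeq2 called *Ankrd1*.

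To set effectors against targets, each gene's log2 level was centred on its mean over the 6 days and averaged over the 5 genes of each kind in each library. The members were chosen with these data known, and no test is given. The zero of each mean is set by this centring, so that only changes between days are read. The day means of the effectors stayed between -0.13 and 0.14, and single libraries between -0.35 and 0.26. The mean of the targets was -0.68 ± 0.22 (SD, n = 3) at 1 dpi and -0.67 ± 0.13 (n = 3) at 2 dpi. It was 0.16 ± 0.41 (n = 4) at 3 dpi, 0.50 ± 0.05 (n = 3) at 4 dpi, 1.02 in the 5 dpi library and -0.33 ± 0.54 (n = 3) at 6 dpi. The difference of targets from effectors was between -0.99 and -0.44 in the libraries of 1 and 2 dpi, between -0.36 and 0.51 at 3 dpi and between 0.21 and 0.89 at 4 and 5 dpi. Each library of 3, 4 and 5 dpi was therefore above all of 1 and 2 dpi, while those of 6 dpi, between -0.52 and 0.10, overlapped 1, 2 and 3 dpi. The range was widest for *Ankrd1*. Without it the targets were at -0.44, -0.38, 0.16, 0.35, 0.59 and -0.27 from 1 to 6 dpi, the same order of days. These values were nearer to 0 on each day but 3 dpi, where the mean was 0.16 both ways. Without *Ankrd1* the means of the targets no longer separated the libraries of the window from those of 1 and 2 dpi. Replicate 2 of 3 dpi was at -0.269, below 1 dpi replicate 1 (-0.204) and 2 dpi replicate 1 (-0.178).

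**Figure D4:**
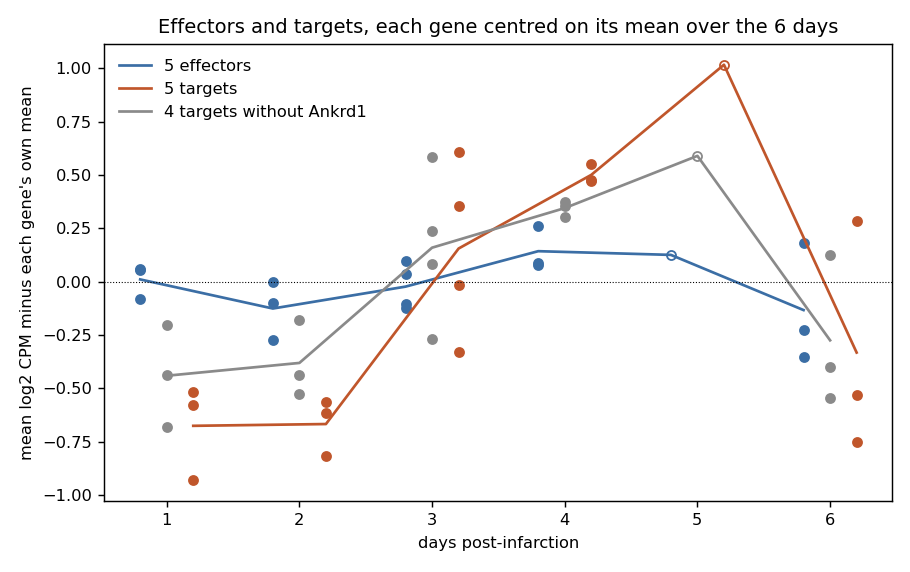
Mean centred log2 CPM of the 5 effectors (blue), the 5 targets (orange) and the 4 targets without *Ankrd1* (grey) against days post-infarction, with 1 point per library, the single 5 dpi library open and lines through the day means. The day means of the effectors lie between -0.13 and 0.14, and those of the targets run from -0.68 at 1 dpi to 1.02 at 5 dpi and to -0.33 at 6 dpi. The effector means average genes that moved in opposite directions on some days.

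Over the 17 libraries the log2 levels of *Ankrd1* and *Ajuba* had a Pearson r of 0.78, those of *Tead1* and *Cyr61* 0.77, and those of *Tead1* and *Ankrd1* 0.76. For *Yap1* the highest value among the members was with *Amotl2* (0.71), and for *Mkl1* no member reached above 0.04. *Wwtr1* and *Cyr61* had an r of -0.41. These are descriptions over libraries that share days and depth. Among 8918 tested genes with a mean of at least 100 counts, the genes whose levels were most like *Ankrd1* were *Ccn4* (r = 0.902), which encodes another CCN matricellular protein, *Ddit4l* (0.88) and *Gpr176* (0.856). Those most like *Cyr61* were *Limd2* (0.933), *Ttc9* (0.896) and *Adgra2* (0.896). Those most like *Ctgf* were *Lrrc8c* (0.908), *Rcn1* (0.879) and *Micu2* (0.849), and those most like *Yap1* were *Dld* (0.886), *Wdr77* (0.881) and *Otud6b* (0.872).

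The other genes of the pathways were read from lists. None of 23 Hippo kinases and scaffolds was called between the window and 1 and 2 dpi, beside 7.48% of all genes, with a median of -0.18. *Lats2*, a kinase that phosphorylates YAP and is itself a YAP target, had a log2 fold change of 0.01 (SE 0.21). *Dchs1*, a giant cadherin upstream of the kinases, and *Taok2*, a kinase of the same cascade, were called over the time course (adjusted p = 0.0151 and 0.046) and lower in the window than at 6 dpi, by log2 fold changes of -1.66 (SE 0.34, adjusted p = 0.00545) and -1.49 (SE 0.32, adjusted p = 0.00692). These were the 2 calls among the 23 in each of these comparisons, beside 15.0% of all genes over the time course and 6.25% lower against 6 dpi. Of 5 tested TEAD factors and cofactors, 1 was called between the window and 1 and 2 dpi, beside 7.48% of all genes. It was *Tead2*, higher in the window (0.86, SE 0.24, adjusted p = 0.0299), a call lost in 5 of 16 fits without 1 library. *Vgll3*, a cofactor that competes for TEAD, had -0.30 (SE 0.21).

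The 16 other targets of a published YAP and TAZ signature did not move together. Between the window and 1 and 2 dpi, 1 was higher and 2 were lower, beside 5.25% and 2.24% of all genes. *Myof*, a membrane repair protein, was higher in the window (0.77, SE 0.22, adjusted p = 0.0374). *Igfbp3*, a binding protein of insulin-like growth factors, was lower (-1.38, SE 0.32, adjusted p = 0.00865), and so was *Axl*, a receptor tyrosine kinase (-0.82, SE 0.22, adjusted p = 0.0229). The median of the 16 was 0.06. The *Myof* call was lost in 10 of 16 fits without 1 library and the *Axl* call in 2. Without the 5 dpi library *Myof* (adjusted p = 0.13) and *Axl* (adjusted p = 0.11) were no longer called.

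Of 20 cytoskeletal targets of MRTF and SRF, 9 were higher in the window than at 1 and 2 dpi and none was lower, beside 5.25% and 2.24% of all genes, with a median of 0.80. *Acta2*, the smooth muscle actin of myofibroblasts, was at 136 ± 45.1 CPM (SD, n = 3) at 1 dpi and 171 ± 54.1 CPM (n = 3) at 2 dpi. It reached 802 ± 322 CPM (n = 4) at 3 dpi, 821 ± 99.6 CPM (n = 3) at 4 dpi and 1370 CPM in the 5 dpi library, and was at 421 ± 94.7 CPM (n = 3) at 6 dpi. Its log2 fold change was 2.66 (SE 0.25, adjusted p = 1.7e-06). *Cnn1*, a calponin of contractile cells, had 2.27 (SE 0.37, adjusted p = 5.0e-04), *Tagln*, an actin-bundling protein, had 1.80 (SE 0.25, adjusted p = 8.2e-05), and *Myl9*, a myosin light chain, had 1.52 (SE 0.22, adjusted p = 1.5e-04). *Cnn1* measured 2.15 to 6.31 CPM at 1 dpi, 1.5 to 6.0 at 2 dpi and 3.55 to 10.9 at 3 dpi, which overlap. Its levels were 10.8 to 18.1 CPM at 4 dpi and 52.8 CPM in the 5 dpi library. Against 6 dpi 5 of the 20 were higher in the window, beside 5.29% of all genes, *Acta2* among them (1.199, SE 0.31, adjusted p = 0.0185). The 1 lower gene, beside 6.25% of all genes, was *Myl9* (-0.83, SE 0.265, adjusted p = 0.0483). In the comparison with 1 and 2 dpi, between 9 and 11 genes of this list were called under the 26 other settings tried. These contractile genes are also expressed by mural cells, whose marker sums are given above, and the part of those cells was not tested. The coactivator *Mkl2*, the relative of *Mkl1*, had 0.29 (SE 0.28). *Rock1*, a kinase that promotes actin filament tension, was lower in the window than at 1 and 2 dpi (-0.96, SE 0.23, adjusted p = 0.011). This was the 1 call among 10 tested SRF coactivators and cofactors, beside 7.48% of all genes, and their median was 0.16.

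Immediate early genes, several of which are SRF targets, are induced when tissue is dissociated. Of 18 on the list, none was higher in the window than at 1 and 2 dpi and 1 was lower. The shares of all genes were 5.25% and 2.24%. The lower gene was *Hspa1a*, a heat shock gene (-1.15, SE 0.33, adjusted p = 0.0355). Its call was lost without the 5 dpi library (adjusted p = 0.17) and in 5 of 16 fits without 1 other library. Over the time course 3 of the 18 were called, beside 15.0% of all genes. They were *Hspa1b* (adjusted p = 0.0392) and *Hspa1a* (adjusted p = 0.0444), near-identical heat shock genes whose reads the counting could split, and *Nr4a1* (adjusted p = 0.0482), an immediate early nuclear receptor. *Hspa1b* was at 426 ± 217 CPM (SD, n = 3) at 1 dpi and 95.7 ± 45.1 CPM (n = 3) at 6 dpi. *Nr4a1* was at 425 ± 26.0 CPM (n = 4) at 3 dpi, with each library there above all others, and its means on the other days were between 174 and 258 CPM. *Fos*, a subunit of the AP-1 factor, had a log2 fold change of 0.00 (SE 0.205) in the window, a mean over unlike days. It was at 2490 to 2760 CPM at 3 dpi, above every other library, at 1140 to 2080 CPM at 4 dpi and at 1530 CPM in the 5 dpi library, and was not called over the time course (adjusted p = 0.22). The summed level of the 18 was 8650 to 13800 CPM at 1 and 2 dpi and 7540 to 14500 CPM in the window.

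**Figure D5:**
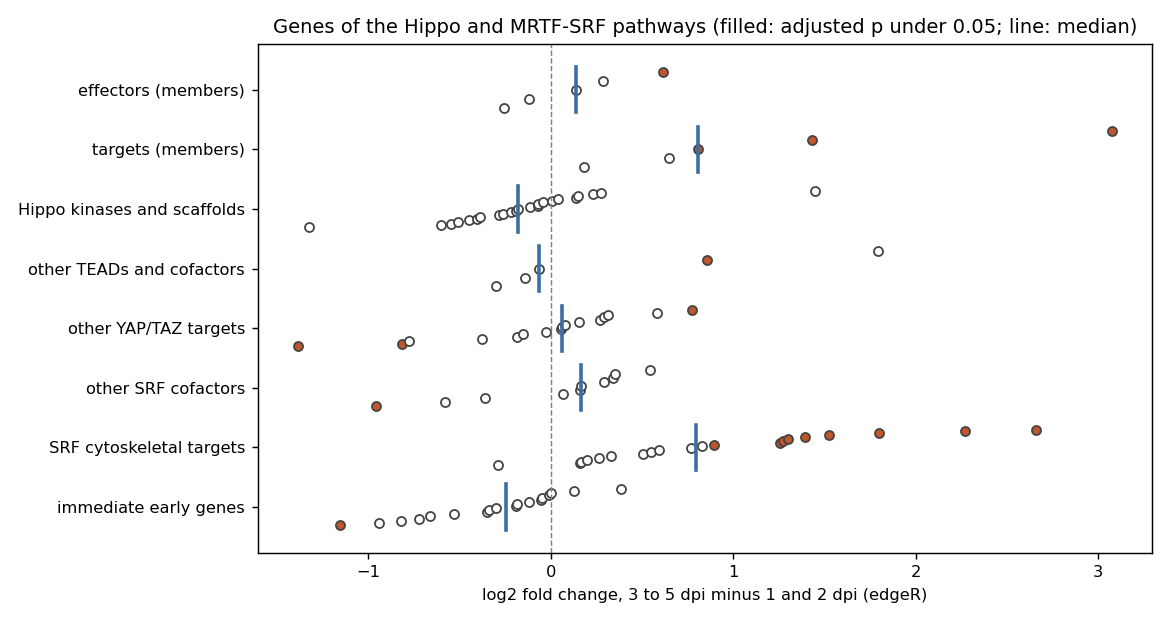
Log2 fold change of the window of 3 to 5 dpi minus 1 and 2 dpi (x axis, edgeR) for each tested gene of the 2 member lists and 6 other pathway lists, 1 point per gene, filled where the adjusted p is under 0.05, with a line at the median of each list. The medians of the targets (0.81) and of the cytoskeletal targets of MRTF and SRF (0.80) lie to the right of the effectors (0.14) and of the Hippo kinases and scaffolds (-0.18).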

How the data were processed

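Bulk RNA-seq by MARS-seq, which primes poly-A RNA with poly-dT and reads 3′ ends, was analysed for 17 libraries. Per the labels the authors demultiplexed reads with bcl2fastq (1.2.4) and counted them per gene on mm10 with featureCounts, after alignment with STAR as their methods state. The deposited values are raw counts without normalization. No collapsing of PCR copies is named in the sources used here, so that depth covers counting error only. At these depths 3 counts, the smallest level read as present, correspond to 0.136 to 0.374 CPM. The members, lists, tests and the rule for named genes were chosen with earlier results of these data known. The pathway and marker lists were written from general knowledge of the pathways. Of each other pathway list, up to 4 genes were named, those with the largest change past the threshold in the window with a mean of at least 100 counts or, where fewer than 2 passed, those of the time course. *Lats2*, *Vgll3*, *Mkl2*, *Acta2* and *Fos* were named in any case, and *Tead2* and *Myl2* after their values were seen.

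Counts were tested in R (4.3.3) with edgeR (4.0.16), TMM normalization and 1 coefficient for each of the 6 days, all 17 libraries in 1 fit and no replicate block. The window is the mean of 3, 4 and 5 dpi. The single 5 dpi library enters it and is assumed to vary like the other days. The standard error is the absolute log2 fold change over the root of F. Log2 levels use a prior count of 2 before the log. Member levels use TMM-normalized library sizes and marker sums the raw totals. The script was tested on simulated data. Replicate pairs differed by more than counting error, chi-square over its degrees of freedom being 21.83 to 212.55 in 18 pairs. Alternatives were DESeq2 (1.42.0), other normalizations and filters, a robust spread, a replicate block, fits without 3 or 5 dpi or on only the days compared, and each library left out in turn. Of the pathway lists, *Vgll2*, *Myocd* and *Abra* had at most 9 counts and were not tested. Gene positions are from GENCODE vM21 (GRCm38).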

Additional observations from a re-analysis of the deposited data

Results flagged for a closer look

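*Amotl2* at 3 dpi had 1 library far from the others. Replicate 2 was at 4.47 log2 CPM, and the other 3 libraries were between 5.73 and 5.90. The gap was 0.878 of the range of the 4 libraries, above Dixon's 95% critical value. Of 12 measures examined at 3 dpi, the only day with more than 3 libraries, 1 was flagged, where 0.6 would be by chance. The same library stood apart from the other 3 over all genes and had the lowest *Ctgf* level of the series (253 CPM) and the highest *Srf* level (46.9 CPM). Without it, *Amotl2* was called over the time course and in the window against 6 dpi.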

How the results depend on the processing

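In the window against 1 and 2 dpi, 3 or 4 members were called under each setting: *Ankrd1*, *Ajuba* and *Cyr61* in all 10 alternatives and all 16 fits without 1 library, and *Tead1* in 7 of 10 and 8 of 16. Against 6 dpi, where 3 were called, the count was 1 with upper-quartile normalization, with every gene of at least 1 count and without 3 dpi, and 0 with the replicate block, without 5 dpi or with only the days compared. Over the time course DESeq2 called 5 in place of 3, and *Cyr61* kept its call in 4 of 9 alternatives. From 2 to 3 dpi, where 1 was called, DESeq2 called 5, every gene of at least 1 count gave 2 and the replicate block 0. From 3 to 4 dpi 1 was called (*Wwtr1*) with upper-quartile normalization, DESeq2 or at least 10 counts in every library. *Ankrd1* was the 1 call from 4 to 6 dpi with every gene of at least 1 count, and from 1 to 6 dpi with that filter and with DESeq2. The causes were not tested.

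Without 1 library the members called ranged from 1 to 5 over the time course, 3 to 4 and 0 to 4 in the window against 1 and 2 dpi and against 6 dpi, 0 to 0 from 1 to 2 dpi, 0 to 2 from 2 to 3, 0 to 1 from 3 to 4, 0 to 3 from 4 to 6 and 0 to 1 from 1 to 6 dpi. Targets minus effectors ranged from -0.79 to -0.56 at 1 dpi, -0.57 to -0.51 at 2, 0.09 to 0.33 at 3, 0.31 to 0.42 at 4, 0.86 to 0.92 at 5 and -0.32 to -0.06 at 6 dpi. Without *Ankrd1*, chosen after its values were seen, they were -0.26 at 2 dpi, 0.20 at 4 dpi and 0.46 at 5 dpi. Replicate numbers did not pair the libraries: deviations of libraries with the same number had a mean correlation of 0.011 over 30 pairs. No gene value that was called changed sign.

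Counts over all genes moved by more than 1.5 times under some settings. A setting that changes the filter or the libraries also changes the number of genes tested, so its count is not a share of the 14030. More genes were tested with every gene of at least 1 count, and fewer with at least 10 counts in every library. Over the time course, with 2099, DESeq2 gave 3757 and every gene of at least 1 count 3729. Those 2 settings gave 1042 and 980 from 2 to 3 dpi (412), 879 and 866 from 3 to 4 (380), 807 and 882 from 4 to 6 (72) and 104 and 153 from 1 to 2 dpi (25). The replicate block gave 174, 243 and 28 for the first 3 of these, at least 10 counts in every library 140 from 4 to 6 and 10 from 1 to 2 dpi, and leaving out 3 dpi 292 from 4 to 6 dpi and 779 in the window against 6 dpi (1619). With only the days compared the counts were 926 in the window against 6 dpi, 252, 125 and 14 for the same 3 day pairs and 63 from 1 to 2 dpi.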
